A study of Mus musculus with 48 samples.

Results

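Calb1, Calb2, Pvalb, Hpca, Hpcal1, Hpcal4, Vsnl1, Ncald, Necab1 and Pcp4 encode small calcium-binding or calmodulin-binding proteins of neurons. They were chosen by name, through the Ensembl identifiers of the deposited count table, and are 10 of its 47069 genes. Each symbol matched 1 identifier, and all 10 are protein-coding genes. RNA was sequenced from mice with a heterozygous 16p11.2 Deletion genotype, in which the syntenic mouse segment at 7qF3 is lost from 1 chromosome copy, and from WT mice, both on a C57BL/6N:129Sv background. The 6 groups were deletion striatum, deletion cortex and deletion cerebellum, and wild-type striatum, wild-type cortex and wild-type cerebellum. Every group had 8 libraries (4 male, 4 female), and each of the 16 animals gave 1 library per region. No age is given here: that label holds a date, which coincides with sex, and the effects of date and sex cannot be told apart. None of the 10 genes lies in the deleted segment.

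Neurons keep free calcium low and read brief rises of it through proteins with EF-hands, which are helix-loop-helix calcium sites. Buffers such as calbindin, calretinin and parvalbumin take up calcium and shape its time course, and they are widely used as markers of neuron classes, among them Purkinje cells of the cerebellum and inhibitory interneurons of the forebrain. Sensors of the neuronal calcium sensor family, such as hippocalcin and the visinin-like proteins, carry a lipid anchor and move to membranes when they bind calcium. Pcp4 has an IQ motif in place of EF-hands and alters how calmodulin binds and releases calcium.

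The 5 sensor genes, Hpca, Hpcal1, Hpcal4, Ncald and Vsnl1, are paralogs, so their sequences decide how far reads can tell them apart. The first 60 coding bases of each are shown from the start codon, 5′ to 3′, from the GENCODE transcripts of GRCm38, with capitals where all 5 genes have the same base.
Hpca: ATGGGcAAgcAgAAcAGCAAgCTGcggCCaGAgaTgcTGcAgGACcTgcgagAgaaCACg
Hpcal1: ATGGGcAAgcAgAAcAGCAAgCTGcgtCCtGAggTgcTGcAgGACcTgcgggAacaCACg
Hpcal4: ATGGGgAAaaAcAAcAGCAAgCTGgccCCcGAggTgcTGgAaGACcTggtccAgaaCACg
Ncald: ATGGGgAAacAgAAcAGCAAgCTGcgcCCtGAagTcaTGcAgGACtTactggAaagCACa
Vsnl1: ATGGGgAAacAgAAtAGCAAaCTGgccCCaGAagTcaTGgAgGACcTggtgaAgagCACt
The capitals mark 34 of the 60 positions. Over the whole coding sequence, of 573 or 579 bases, Hpca and Hpcal1 were the closest pair at 86.0% identity, and Hpcal4 and Ncald the most distant at 67.5%. Hpcal4 and Vsnl1 were 82.4% identical and Hpcal1 and Ncald 80.1%. The longest run of bases shared by a pair of these transcripts was 46 bases, between Hpca and Ncald. Reads that fall inside such a run could have been given to either gene, and how the counting step treated them is not given in the sources used here.

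In GRCm38 coordinates, Calb1 spans chr4:15881264-15908064 on the plus strand, Calb2 chr8:110137502-110168210 on the minus strand and Pvalb chr15:78191114-78206400 on the minus strand. Hpca lies at chr4:129111570-129122036 on the minus strand, Hpcal1 at chr12:17690856-17791933 and Hpcal4 at chr4:123183227-123194701, both on the plus strand. Vsnl1 spans chr12:11325242-11436613 and Ncald chr15:37366175-37792570, both on the minus strand. Necab1 spans chr4:14952245-15149794 on the minus strand and Pcp4 chr16:96467606-96525793 on the plus strand. Exons of Hpca overlap those of Tmem54 on the other strand, exons of Ncald overlap an antisense and a sense non-coding transcript, exons of Necab1 overlap an antisense transcript, and exons of Pcp4 overlap those of Igsf5 on the same strand. Counts of these 4 genes may hold reads of the overlapping gene.

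The libraries held 29244745 to 60751792 gene counts, with a median of 32232112. The mean log2 level of 22 deleted genes, relative to its wild-type mean, was -1.355 to -0.791 in deletion striatum, -1.375 to -0.722 in deletion cortex and -1.34 to -0.787 in deletion cerebellum, and every deletion library lay below every wild-type library in all 3 regions. The dissections varied. The mean log2 CPM (counts scaled to library size) of 10 markers of striatal projection neurons was 4.79 to 8.905 in deletion striata and 3.91 to 8.17 in wild-type striata, and it reached 7.84 in deletion cortex and 7.31 in wild-type cortex. By these markers the striatal and cortical libraries overlapped. In striatum, thalamic markers exceeded striatal ones in animals D810 and W813, and cortical markers did so in W813 and W815. That order also depends on the striatal mean, so it does not pick the libraries highest in thalamic or cortical markers. The thalamic mean was 6.27 in W814 and 6.17 in D811, against 6.02 in D810 and 4.005 in W813. The cortical mean was 5.34 in W814, against 4.91 in W813. W814 and D811 stayed in these fits. In cerebellum the mean of 8 Purkinje cell markers was 6.04 in animal D809 and at least 7.645 in every other animal, and the brainstem marker mean was highest in D809, at 3.12. Where leaving out D810 and W813, or W813 and W815, changed a call of a member, the value without them is given beside it.

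**Figure D1:**
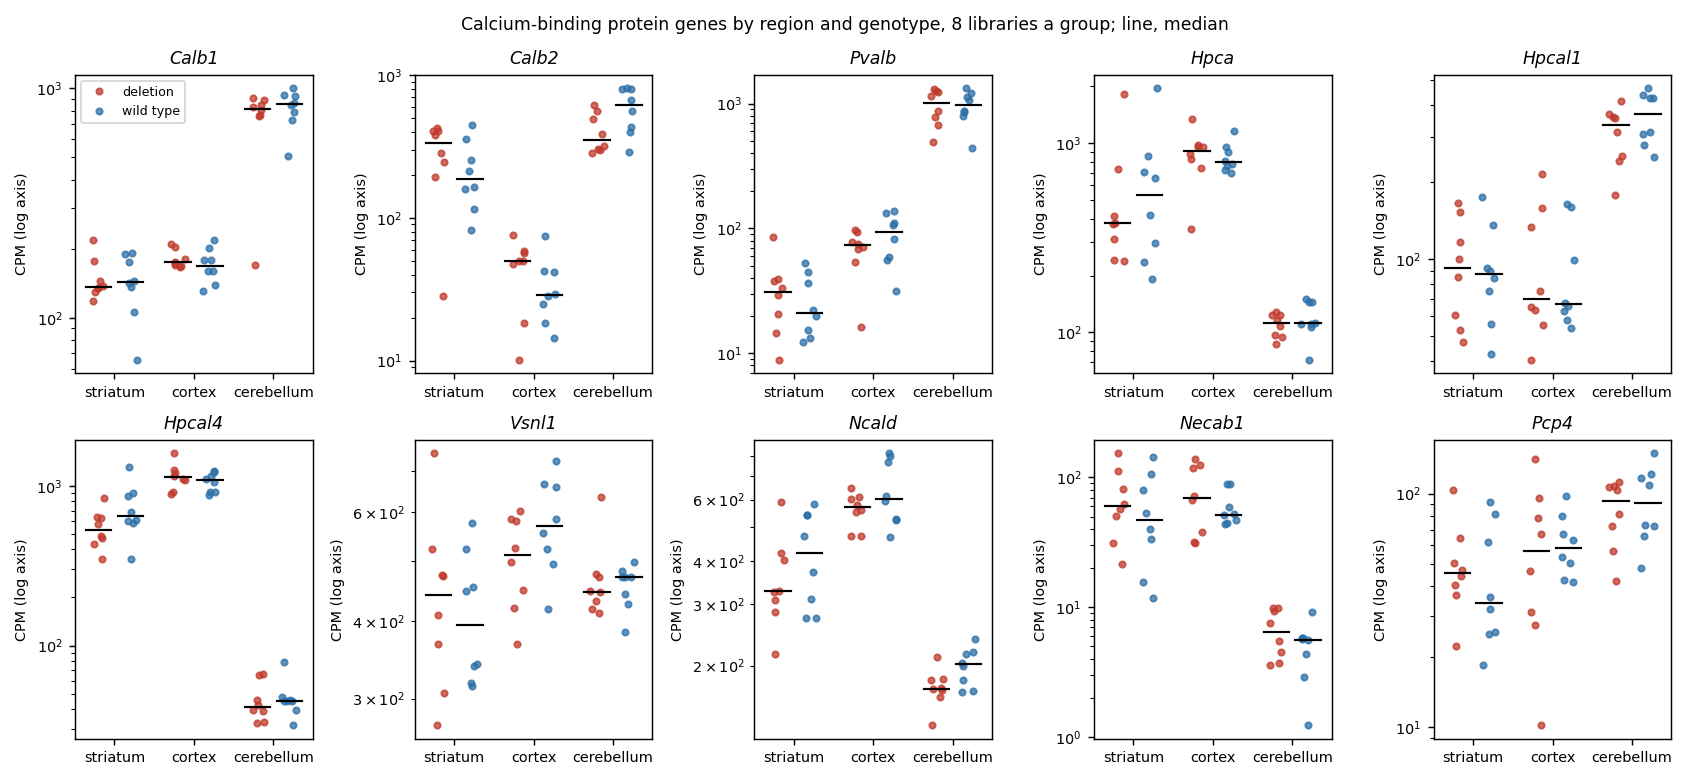
CPM of each gene in every library (log axis), by region, with deletion libraries in red left of wild-type libraries in blue and a black line at the median of the 8 libraries. By their medians the 3 buffers, Hpcal1 and Pcp4 sit highest in cerebellum and Hpca, Hpcal4, Ncald and Necab1 sit lowest there. Deletion and wild-type libraries overlap in every panel and region.

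The genes differed first of all by region. In wild-type libraries 4 of the 10 differed between striatum and cortex, against 18.6% of all 17633 genes tested, by edgeR's quasi-likelihood test at an adjusted p under 0.05. Between cortex and cerebellum 9 of 10 differed, 5 of them higher and 4 lower in cortex, against 48.9% of all genes. Between striatum and cerebellum 9 of 10 differed, 4 higher and 5 lower in striatum, against 48% of all genes. In bulk tissue, fewer cells of a type and less RNA per cell cannot be told apart, so these are differences of tissue levels. Below, log2 fold changes are given ± SE, and p-values are adjusted over all genes tested by the Benjamini-Hochberg method.

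The 3 buffers were highest in cerebellum. Calb1 encodes calbindin, the buffer of Purkinje cells. Its lowest, median and highest levels in wild-type libraries were 65.6, 143 and 192 CPM in striatum, 130.5, 169 and 218 CPM in cortex, and 507, 853 and 1003 CPM in cerebellum. Striatum and cortex overlapped and were not called different, at -0.25 ± 0.17 (95% interval -0.61 to 0.11), while every wild-type cerebellar library lay above every wild-type forebrain one. Relative to cerebellum, Calb1 was lower in striatum (log2 fold change -2.51 ± 0.18, adjusted p = 2.01e-10, edgeR) and lower in cortex (log2 fold change -2.26 ± 0.18, adjusted p = 7.56e-10).

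Calb2 encodes calretinin, a buffer of interneurons and of granule cells. Its wild-type levels were 81.9, 188 and 446 CPM in striatum, 14.3, 28.8 and 74.6 CPM in cortex, and 288, 617 and 811.5 CPM in cerebellum. Calb2 was the 1 gene of the 10 called higher in striatum than in cortex, with no overlap between the wild-type ranges and the same direction in 8 of 8 animals. The log2 fold change of striatum over cortex was 2.61 ± 0.37 (adjusted p = 5.76e-05, edgeR). It was 2.73 without W813 and W815. With deletion libraries included, the ranges overlapped: the striatum of D801 had 28.6 CPM and the cortex of D804 had 76.0 CPM. D801 was the striatum with the highest striatal marker mean, 8.905. How Calb2 relates to that mean within striatum was not tested. Across the 16 striatal libraries the correlation of Calb2 with the thalamic marker mean did not pass the test (r = 0.408, permutation p = 0.114, adjusted over 40 pairs 0.254; rho = 0.326, permutation p = 0.219). Calb2 was lower than in cerebellum in both, with log2 fold changes of -1.46 ± 0.35 for striatum and -4.08 ± 0.38 for cortex.

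Pvalb encodes parvalbumin, the fast buffer of fast-spiking interneurons, of Purkinje cells and of molecular layer interneurons. Wild-type libraries had 12.3, 21.05 and 52.5 CPM in striatum, 31.7, 94.1 and 137 CPM in cortex, and 437, 967 and 1328 CPM in cerebellum. Striatum was below cortex in 8 of 8 animals although the ranges overlapped, and cerebellum was clear of both. The log2 fold changes were -1.73 ± 0.34 for striatum over cortex (adjusted p = 0.000917, edgeR), -5.13 ± 0.39 for striatum over cerebellum and -3.40 ± 0.36 for cortex over cerebellum. Striatum over cortex was -1.71 without W813 and W815. The difference of striatum from cerebellum was the widest of the 30 region differences of the 10 genes.

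The sensors fell into groups by region. Hpca encodes hippocalcin, a sensor abundant in hippocampal pyramidal cells and in other forebrain projection neurons. Wild-type levels were 191.5, 535 and 1957 CPM in striatum, 701, 794 and 1161 CPM in cortex, and 71.7, 112 and 149 CPM in cerebellum. Every forebrain library was above every cerebellar one, and the striatal libraries were spread more widely than the cortical ones. Striatum and cortex were not called different, at -0.40 ± 0.34 (adjusted p = 0.447, edgeR), but without W813 the log2 fold change was -0.83 and was called (adjusted p = 0.029). Without both W813 and W815 it was -0.79 (adjusted p = 0.0542). Over cerebellum, Hpca was higher in striatum (2.45 ± 0.35) and in cortex (2.85 ± 0.36).

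Hpcal4, a visinin-like sensor, had the widest forebrain excess. Its wild-type levels were 348, 647 and 1314 CPM in striatum, 876, 1086 and 1245 CPM in cortex, and 31.7, 45.0 and 78.3 CPM in cerebellum. No forebrain library overlapped the cerebellar ones. Over cerebellum the log2 fold change was 3.97 ± 0.23 in striatum (adjusted p = 4.43e-12, edgeR) and 4.49 ± 0.23 in cortex (adjusted p = 6.58e-13). Striatum over cortex was -0.53 ± 0.20 and missed the threshold (adjusted p = 0.0707), but it was called with animal as a block (-0.56 ± 0.20, adjusted p = 0.0472, where 30.4% of all genes were called) and without W813 and W815 (-0.72, adjusted p = 0.0107).

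Hpcal1, the sensor most like hippocalcin in sequence, went the other way. It had 42.5, 87.3 and 175 CPM in wild-type striatum, 53.7, 66.6 and 164 CPM in wild-type cortex, and 251, 371 and 466.2 CPM in wild-type cerebellum. All cerebellar libraries of the wild type were above all forebrain ones. Hpcal1 was lower than in cerebellum by the same amount in striatum and in cortex, with a log2 fold change of -1.99 ± 0.28 in each. The paralogs Hpca and Hpcal1, 86.0% identical over their coding bases, had opposite orders of forebrain and cerebellum. Striatum and cortex did not differ detectably (95% interval of the log2 fold change -0.55 to 0.55).

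Vsnl1 and Ncald were the most even of the sensors. Vsnl1, the visinin-like sensor widely spread over brain neurons, had 314, 394 and 577 CPM in wild-type striatum, 419, 570.2 and 725 CPM in wild-type cortex, and 384, 471.5 and 499 CPM in wild-type cerebellum, and all 3 ranges overlapped. It was lower in striatum than in cortex (-0.49 ± 0.13, adjusted p = 0.0103, edgeR; -0.505 without W813 and W815) and higher in cortex than in cerebellum (0.35 ± 0.13, adjusted p = 0.0291). The cortical excess missed the threshold when no filter on low counts was used (0.33, adjusted p = 0.0682). Striatum and cerebellum were not called different, with a 95% interval of -0.41 to 0.13.

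Ncald encodes neurocalcin delta, a sensor that binds clathrin and cytoskeletal proteins. Its wild-type levels were 273, 422 and 583 CPM in striatum; in cortex the lowest was 468, the median 604 and the second highest 799 CPM; and cerebellum had 168, 202 and 238 CPM. The order of striatum below cortex held in 8 of 8 animals, and both forebrain regions were clear of cerebellum. Log2 fold changes were -0.62 ± 0.17 for striatum over cortex (adjusted p = 0.0117, edgeR), 1.07 ± 0.17 for striatum over cerebellum and 1.69 ± 0.17 for cortex over cerebellum. Without W813 and W815, striatum over cortex was -0.78 (adjusted p = 0.00268, edgeR) and striatum over cerebellum 0.91.

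Necab1 encodes an EF-hand protein of subsets of cortical and striatal neurons. It had 11.7, 46.7 and 144 CPM in wild-type striatum, 43.9, 51.8 and 89.0 CPM in wild-type cortex, and 1.24, 5.65 and 9.13 CPM in wild-type cerebellum, where it was nearly absent and overlapped no forebrain library. It was higher over cerebellum by nearly the same log2 fold change in striatum (3.54 ± 0.46) and in cortex (3.54 ± 0.45). Pcp4 had 18.45, 33.9 and 92.0 CPM in striatum, 41.9, 58.4 and 97.3 CPM in cortex, and 47.8, 91.4 and 149 CPM in cerebellum. Named for Purkinje cells, it was lower in striatum than in cerebellum in 8 of 8 animals (-1.02 ± 0.32, adjusted p = 0.0106, edgeR), but not without W813 and W815 (-0.83, adjusted p = 0.0583). The cortical difference from cerebellum was not called (-0.61 ± 0.32, adjusted p = 0.118).

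**Figure D2:**
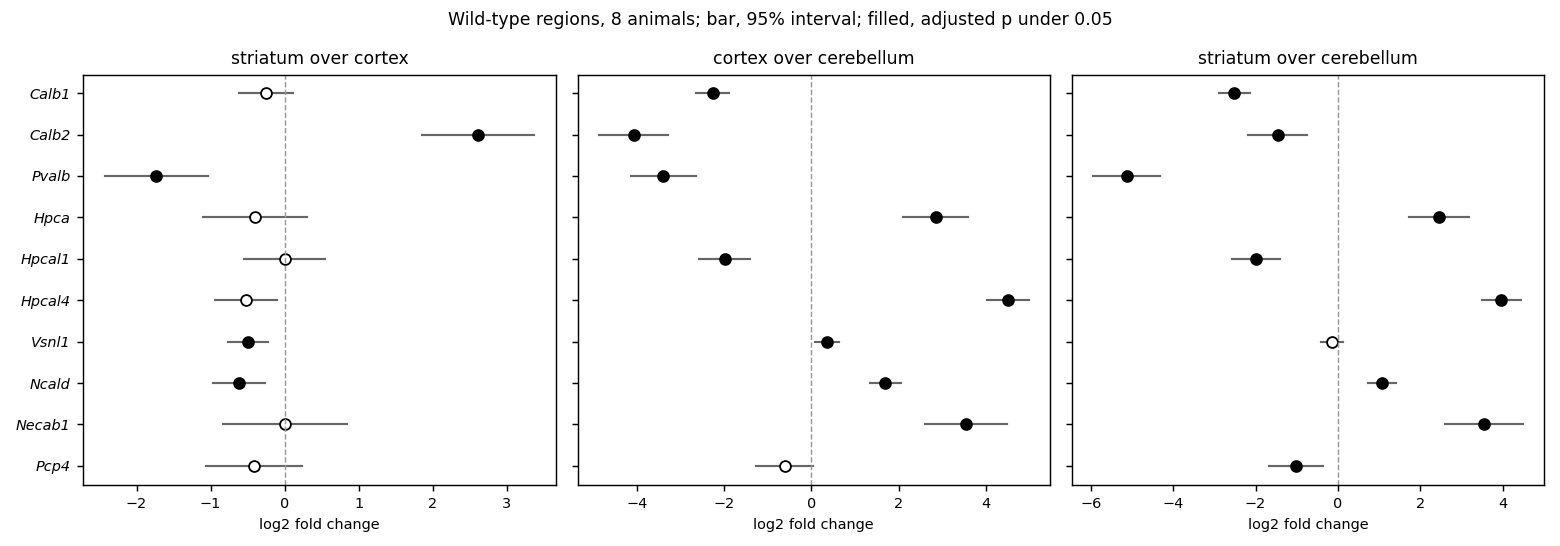
Log2 fold change of each gene between wild-type regions (x axis), as striatum over cortex, cortex over cerebellum and striatum over cerebellum; points are edgeR estimates from 8 animals, bars are 95% intervals and filled points have an adjusted p under 0.05. Calb2 stands alone at 2.61 on the striatal side of the first panel, and Hpcal4 and Pvalb lie at the ends of the third, at 3.97 and -5.13.

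Genes can be set side by side only per length of exon. In wild-type striatum Hpca (227 ± 197 CPM per kb, SD, n = 8) and Vsnl1 (212 ± 51.8) led, and Necab1 was lowest (11.6 ± 8.86). In wild-type cortex Vsnl1 (296 ± 51.7 CPM per kb) and Hpca (290.1 ± 52.0) led, with overlapping ranges, and Hpcal4 followed at 199 ± 27.4. In wild-type cerebellum Pvalb came first at 925 ± 272 CPM per kb and Calb2 second at 342 ± 118. Their ranges, 419 to 1276 and 165 to 465.6, still overlapped. Vsnl1, Hpcal1 and Calb1 followed with 233 ± 18.9, 215 ± 49.4 and 170 ± 31.8 CPM per kb and overlapping ranges. Necab1 closed the order with 0.969 ± 0.446, below every library of Hpcal4 (5.94 to 14.7 CPM per kb). The sum of the 10 genes averaged 2836 ± 716 CPM in wild-type striatum, 3634 ± 221 in wild-type cortex and 3668 ± 590 in wild-type cerebellum.

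Deletion libraries were then set against wild-type libraries in each region, the comparison the study was built for. None of the 10 genes was called by genotype in striatum, in cortex or in cerebellum, by edgeR or by DESeq2. Over all genes, 0.128% of 17198 were called in striatum, 0.13% of 16877 in cortex and 0.138% of 16672 in cerebellum, so 0 of 10 is close to that background. At an unadjusted p under 0.05, edgeR gave 0 of the 10 in striatum, 0 in cortex and 2 in cerebellum, where the shares of all genes were 3.32%, 2.03% and 2.08%. In all 30 pairs of groups the deletion and wild-type ranges overlapped. The median log2 fold change of the 10 was 0.10 in striatum, 0.07 in cortex and -0.12 in cerebellum.

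In cerebellum the smallest p belonged to Calb2. Its lowest, median and highest levels were 286, 353 and 621 CPM in deletion cerebellum and 288, 617 and 811.5 CPM in wild-type cerebellum. The wild-type median was exceeded in 1 of 8 deletion libraries, yet the ranges shared most of their extent. The log2 fold change was -0.56 ± 0.23 (unadjusted p = 0.0253, adjusted p = 1, edgeR), and it lay between -0.66 and -0.44 when any 1 library was left out. Ncald came next, with 135, 172 and 212 CPM in deletion cerebellum and 168, 202 and 238 CPM in wild-type cerebellum, a log2 fold change of -0.21 ± 0.10 (unadjusted p = 0.0436, adjusted p = 1).

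Calb1 in cerebellum shows how far 1 library can weigh. Deletion cerebellum had 169, 815.5 and 910.5 CPM, and wild-type cerebellum had 507, 853 and 1003 CPM. The low value was that of D809, and the next deletion library had 755 CPM. D809 was the cerebellum lowest in Purkinje cell markers, but not in these alone. Its granule cell marker mean was 5.757, against at least 7.29 elsewhere, and its cerebellar interneuron marker mean 4.169, against at least 4.908. Its oligodendrocyte marker mean was the highest, at 10.101. How Calb1 relates to these means was not tested. The log2 fold change was -0.16 ± 0.24 (adjusted p = 1, edgeR) with D809 and 0.00 without it. Pvalb, also a Purkinje cell gene, had 496, 1015 and 1310 CPM in deletion cerebellum and 437, 967 and 1328 CPM in wild-type cerebellum, and its log2 fold change was 0.03 ± 0.23. Of the others there, Necab1 was at 0.43 ± 0.32 (0.27 without D809), Hpcal1 at -0.25 ± 0.17 and Pcp4, Hpca, Hpcal4 and Vsnl1 between -0.13 and 0.03.

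In striatum Hpcal4 had the smallest p. Deletion striatum had 350, 533 and 844.5 CPM and wild-type striatum had 348, 647 and 1314 CPM, and the wild-type median was exceeded by 1 of 8 deletion libraries. The log2 fold change was -0.40 ± 0.22 (unadjusted p = 0.0961, adjusted p = 1, edgeR), and it was -0.24 without W813 and W815 and -0.10 with dissection marker means as covariates. Its effect in striatum minus that in cortex was -0.54 ± 0.26 (unadjusted p = 0.0477, adjusted p = 1). No difference of the genotype effect was called for any member between striatum and cortex, cortex and cerebellum or striatum and cerebellum. There 0% of all 18531 genes were called.

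Calb2 ran the other way in striatum, with 28.6, 332 and 427 CPM in deletion striatum and 81.9, 188 and 446 CPM in wild-type striatum. The low deletion value was that of D801, and the next was 194 CPM. With 7 of 8 deletion libraries above the wild-type median, the log2 fold change was 0.55 ± 0.41 (unadjusted p = 0.198, adjusted p = 1, edgeR). Without D801 it was 0.78 (unadjusted p = 0.00268, adjusted p = 0.547), and with dissection marker means as covariates it was 0.20 (unadjusted p = 0.684, adjusted p = 1). D801 had the highest striatal marker mean, 8.905, and its Hpca was the highest of the deletion striata.

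Hpca in striatum was spread too widely for a difference of moderate size to be seen. Deletion striatum had 240, 378 and 1821 CPM, the highest in D801, and wild-type striatum had 191.5, 535 and 1957 CPM, the highest in W813. The log2 fold change was -0.25 ± 0.55, with a 95% interval of -1.41 to 0.91, and single libraries moved it: it was -0.77 without D801 (adjusted p = 0.994, edgeR) and turned to 0.20 without W813 (adjusted p = 0.957). Without D810 and W813 together it was 0.29. In W813 the hippocampal marker mean was 6.39, the highest of the 16 striata, while the striatal marker mean was 3.91, the lowest. The part of these markers in the level of Hpca was not tested. The remaining striatal log2 fold changes lay between -0.22 for Ncald and 0.30 for Pvalb.

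In cortex the log2 fold changes ran from -0.39 ± 0.34 for Pvalb to 0.46 ± 0.39 for Calb2. Pvalb had 16.2, 73.1 and 98.0 CPM in deletion cortex and 31.7, 94.1 and 137 CPM in wild-type cortex, and 1 of 8 deletion libraries was above the median of the wild type. Calb2 had 10.1, 49.8 and 76.0 CPM in deletion cortex and 14.3, 28.8 and 74.6 CPM in wild-type cortex. Leaving out 1 library moved both: Pvalb was at -0.54 without W805 and -0.23 without D812, and Calb2 at 0.28 without D804 and 0.70 without W815. Vsnl1 had 368, 511.5 and 602 CPM in deletion cortex and 419, 570.2 and 725 CPM in wild-type cortex, at a log2 fold change of -0.20 ± 0.13 (unadjusted p = 0.128, adjusted p = 0.965, edgeR). The most tightly measured cortical gene was Calb1, at 0.09 ± 0.11, with a 95% interval of -0.14 to 0.31. No difference of the genotype effect by sex was called for any of the 10 in any region by edgeR's interaction test. There 0% of all genes were called in each region and 0 of the 10 had an unadjusted p under 0.05. The male minus female estimates (log2) ran from -1.07 to 1.59 in striatum, -0.39 to 0.74 in cortex and -0.44 to 0.54 in cerebellum. Their median SE was 0.65, 0.52 and 0.40, so sizeable differences could go unseen. In striatum, females alone gave 1 of 10 at an unadjusted p under 0.05 by edgeR (2.9% of all genes) and males alone 0 (2.02%).

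**Figure D3:**
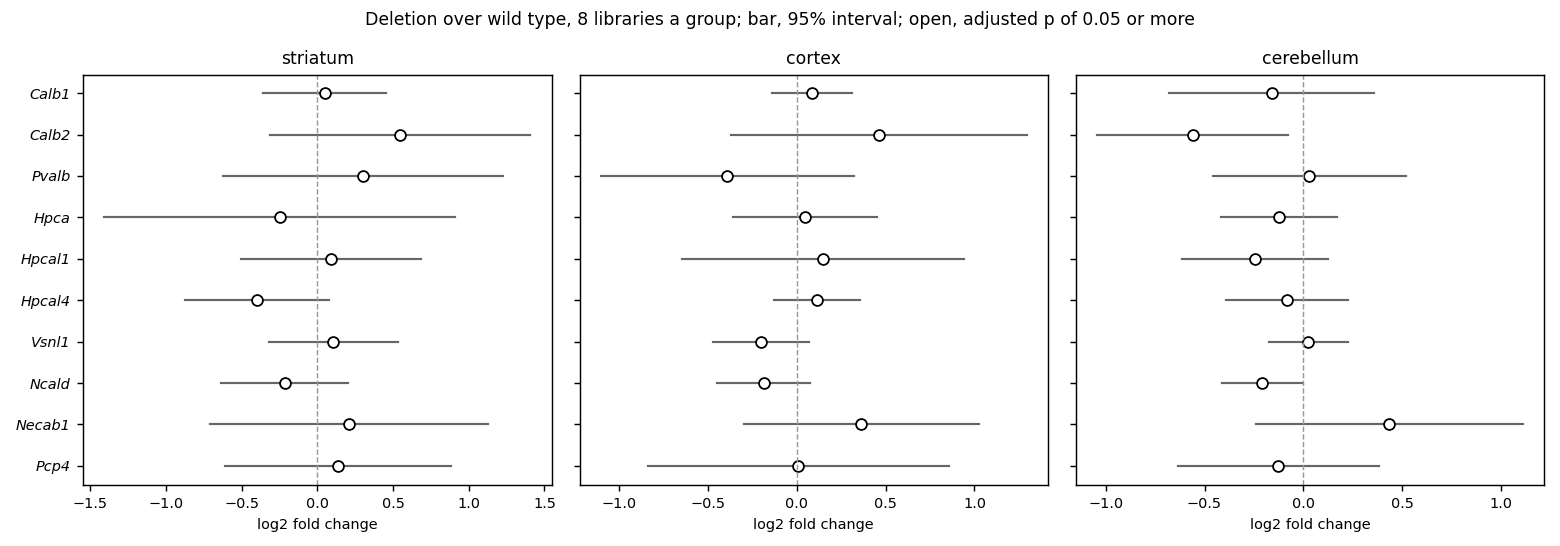
Log2 fold change of deletion over wild type for each gene in each region (x axis); points are edgeR estimates from 8 libraries per genotype and bars are 95% intervals, all open because no adjusted p was under 0.05. The intervals are narrowest for Vsnl1 and Ncald in cerebellum and widest for Hpca in striatum, from -1.41 to 0.91.

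Other genes of calcium signalling gave the same count. Of 5 lists (relatives in the sensor family, relatives of the other members, other EF-hand proteins, calmodulin targets, and calcium pumps, exchangers and channels, 64 genes in all), 0 members were called by genotype in any region. Not all were tested: the filter on low counts left 7, 7 and 6 of 8 sensor relatives in striatum, cortex and cerebellum. Of 7 relatives of the other members it left 6, 7 and 5. Uncalled signs did not run 1 way over the regions. Transport genes had a positive log2 fold change in 4 of 15 in striatum, 14 of 15 in cortex and 5 of 15 in cerebellum, with medians of -0.05, 0.17 and -0.08. Other EF-hand genes were positive in 13 of 22, 4 of 22 and 13 of 22, with medians of 0.03, -0.09 and 0.02. In male cortex alone the counts were 9 of 15 and 12 of 22, and in female cortex 15 of 15 and 6 of 22. Over all genes tested the median log2 fold change was -0.006 in striatum, 0.0038 in cortex and -0.005 in cerebellum. The genes of smallest p in cortex were Scgn, which encodes the buffer secretagogin (2.14 ± 0.62, unadjusted p = 0.00343, adjusted p = 0.965, edgeR), Kcnip4, a sensor of potassium channels (-0.19 ± 0.09), S100a6 (-0.36 ± 0.26), the kinase gene Camk2g (-0.18) and the pump gene Atp2b4 (0.29). In striatum they were S100a6 (-0.60 ± 0.27, unadjusted p = 0.0412), Guca1b (1.07 ± 0.68), Gap43 (0.22 ± 0.16), Camkk1 (-0.31) and the release channel gene Ryr2 (-0.38). In cerebellum they were Ncs1 (0.22 ± 0.16), Pcp4l1 (0.38 ± 0.41), Chp1 (0.10 ± 0.09), Camk2a (-0.30) and Ryr3 (0.37).

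By region, 2 of 7 sensor relatives were called between striatum and cortex, 5 between cortex and cerebellum and 5 between striatum and cerebellum, where 18.6%, 48.9% and 48% of all genes were called. For 7 relatives of the other members these counts were 3, 4 and 5, for 22 other EF-hand genes 6, 10 and 9, for 12 calmodulin targets 3, 10 and 5, and for 15 transport genes 3, 9 and 8. For other EF-hand genes against cerebellum, and for calmodulin targets between striatum and cerebellum, the shares were below those of all genes, and nothing is read from the counts about any list. With animal as a block, 5 relatives of the other members and 6 calmodulin targets were called between striatum and cortex, where 30.4% of all genes were, and the other counts moved by at most 1.5 times.

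Among the sensor relatives, Kcnip2 was higher than in cerebellum in striatum (4.32) and in cortex (4.52), Ncs1 was higher in both (0.84 and 0.81), as was the recoverin gene Rcvrn (0.80 and 1.22), and Kcnip4 was lower in both (-0.76 and -0.67). Kcnip1 was higher in striatum than in cortex (0.86) and lower in cortex than in cerebellum (-0.86). Kcnip3 was lower in striatum than in cortex (-0.93) and than in cerebellum (-0.70). The relatives of the other members followed them in part. Scgn was higher in striatum than in cortex (2.84), as Calb2 was, but it was also higher in striatum than in cerebellum (3.28), where Calb2 was lower. The parvalbumin relative Ocm was lower in striatum than in cortex (-3.61), as Pvalb was, but higher in cortex than in cerebellum (2.11), where Pvalb was lower. Ocm in striatum and cerebellum, and Scgn and Rcvrn in cerebellum, did not pass the filter on low counts for the genotype test. Their fold changes against those regions therefore rest on low counts. Necab2 was higher than in cerebellum in striatum (3.44) and in cortex (2.84), as Necab1 was, while Necab3 was lower in striatum than in cerebellum (-1.09) and than in cortex (-1.61). Nrgn and Gap43, which like Pcp4 have an IQ motif, were higher than in cerebellum in striatum (3.52 and 1.05) and in cortex (5.48 and 0.62). The intracellular pump gene Atp2a3 and the release channel gene Itpr1 were lower than in cerebellum in striatum (-4.82 and -2.89) and in cortex (-4.99 and -2.35), the same direction as Calb1 and Pvalb. That direction was not general: of the 9 transport genes called between cortex and cerebellum, 5 were lower and 4 higher in cortex.

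Pairs of the 10 genes were also compared from library to library, within region and genotype (n = 16 libraries per region). Of 45 pairs in each region, 4 passed both a Pearson and a Spearman permutation test in striatum, 3 in cortex and 3 in cerebellum, with p-values adjusted over all 135 pairs; 2, 1 and 2 of them were positive. Adjusted p-values of these pairs ran from 0.00135 to 0.0434 for r and from 0.0027 to 0.0472 for rho, and raw ones from 1e-05, the smallest that 100000 resamples can give, to 0.00482.

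In striatum Hpcal1 ran against Hpcal4 (r = -0.855, rho = -0.897) and against Necab1 (r = -0.720, rho = -0.691), while Hpcal4 and Necab1 ran together (r = 0.719, rho = 0.703). Without the 2 libraries farthest from the median of the first gene, these were r = -0.841, -0.623 and 0.566. The pair Hpca and Pcp4 also passed, but its points fall into clusters and no r is given. In cortex Vsnl1 and Ncald ran together (r = 0.790, rho = 0.774), Pvalb ran against Hpcal4 (r = -0.790, rho = -0.782) and Necab1 against Pcp4 (r = -0.724, rho = -0.697), and r was 0.770, -0.713 and -0.629 without the 2 farthest libraries. In cerebellum Pvalb and Pcp4 ran together (r = 0.952, rho = 0.879), as did Calb2 and Hpcal1 (r = 0.748, rho = 0.741), and Necab1 ran against Pcp4 (r = -0.755, rho = -0.847). Without the 2 farthest libraries these were r = 0.920, 0.806 and -0.704. In all 9 pairs with an r, males and females taken apart gave the same sign, from r = 0.959 in males and 0.930 in females for Pvalb and Pcp4 to -0.580 in males and -0.885 in females for Necab1 and Pcp4 in cerebellum.

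Some of these relations moved with a property of the libraries. A length score was taken for each library, the slope of its deviation in log2 CPM on log2 exon length over all genes of at least 1 CPM, and it was compared with each gene in each region, 30 relations in all. Necab1, whose exons add up to 5.24 kb, followed it closely in cortex (r = 0.951, rho = 0.897, permutation p = 1e-05 for each, the smallest 100000 resamples can give, adjusted 0.0003) and in striatum (r = 0.765, adjusted permutation p = 0.0057; rho = 0.741, adjusted permutation p = 0.0148). Hpca, with 2.92 kb, ran against it in cerebellum (r = -0.736, rho = -0.726, adjusted permutation p = 0.00606 and 0.0148). Without the 2 libraries farthest from the median score, r was 0.951 and 0.749 for Necab1 in cortex and striatum and -0.595 for Hpca. No other of the 30 relations passed both tests, and the score did not sort the genes by length. Ncald, with the longest exons at 8.58 kb, had r = 0.038 in striatum, -0.343 in cortex and 0.23 in cerebellum. Calb1, with 4.85 kb, had r = -0.129, -0.056 and 0.376. The short Pvalb and Pcp4, with 1.04 and 1.03 kb, had r = -0.778 and r = -0.762 in cerebellum, but their rho did not pass (adjusted permutation p = 0.0986 for each). After both were regressed on the score, r was 0.883 for Pvalb and Pcp4 in cerebellum and -0.377 for Necab1 and Pcp4 in cortex. In striatum r was then 0.506 for Hpcal4 and Necab1, -0.542 for Hpcal1 and Necab1 and -0.781 for Hpcal1 and Hpcal4. In cortex it was -0.664 for Pvalb and Hpcal4 and 0.771 for Vsnl1 and Ncald. In cerebellum it was 0.743 for Calb2 and Hpcal1 and -0.761 for Necab1 and Pcp4. With the score as a covariate, the cortical genotype difference of Necab1 was -0.03, against 0.36 without it, and without D801 it was 0.11. What sets the score was not tested.

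Dissection markers gave 1 relation that passed both tests among 40. Ncald in striatum was higher with a higher mean of 9 cortical neuron markers (r = 0.773, adjusted permutation p = 0.034; rho = 0.791, adjusted permutation p = 0.0184, n = 16). It kept r = 0.711 without the 2 libraries farthest from the median of the markers, and r was 0.556 in the 8 males and 0.809 in the 8 females. Ncald was the gene with 543.6 and 583 CPM in the striata of W813 and W815, against a wild-type median of 422. Calb1 in cerebellum against brainstem markers had r = -0.633 and did not pass (adjusted permutation p = 0.055).

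**Figure D4:**
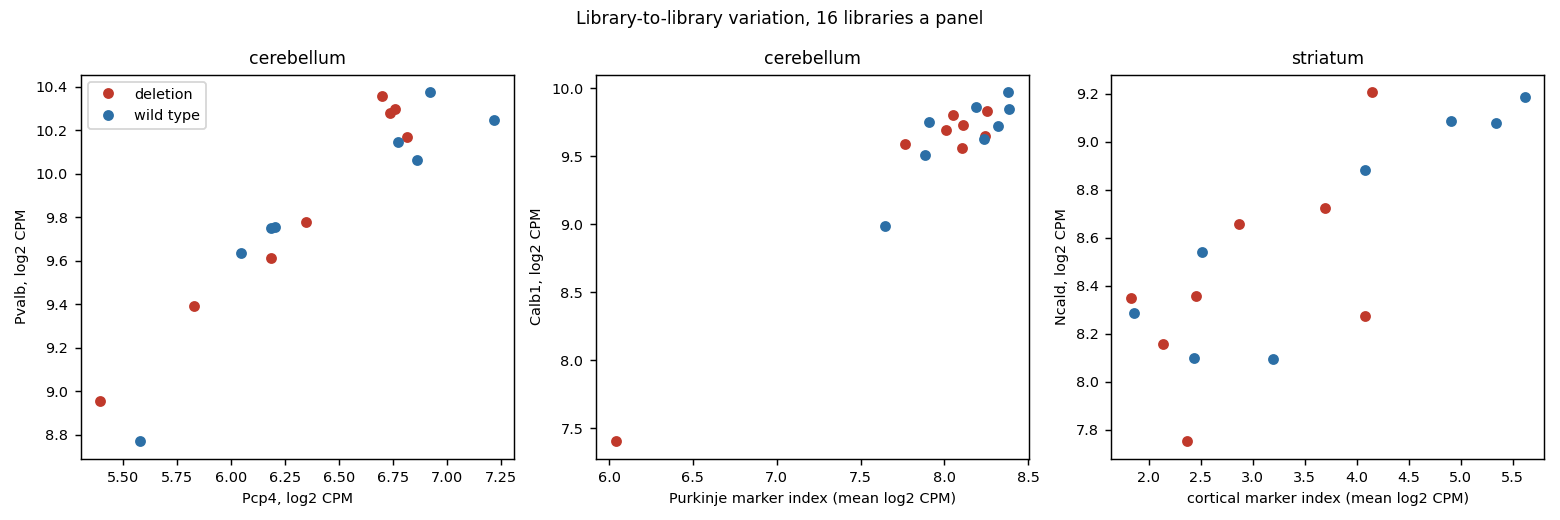
Log2 CPM of single libraries (deletion red, wild type blue, 16 per panel): Pvalb against Pcp4 in cerebellum, Calb1 against the mean of Purkinje cell markers in cerebellum, and Ncald against the mean of cortical markers in striatum. Pvalb and Pcp4 lie along 1 line (r = 0.952), and D809 stands alone at a marker mean of 6.04, with a Calb1 level of 169 CPM.

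For each gene, the pattern most like its own was sought in the region where it varied most, as the highest Pearson r of deviations from the genotype means over 16 libraries. In striatum Hpca was most like Rgs14 and Camk2b among 15088 genes, but its values fall into clusters and no r is given. Necab1 was most like Kitl (r = 0.975) and Strbp (r = 0.954), and Hpcal4 like Gas7 (0.955) and Wdr13 (0.954). Calb2 was most like Tunar (0.930) and Actn3 (0.919), Ncald like Galnt9 (0.910) and Sobp (0.908), Vsnl1 like Ebf3 (0.876) and Ebf2 (0.870), and Pvalb like Uchl5 (0.837) and Brcc3 (0.835). In cortex Hpcal1 was most like Lypd1 (0.939) and Marcksl1 (0.936), and Pcp4 like Tlnrd1 (0.930) and Them6 (0.928). In cerebellum Calb1 was most like Bhlhe22 (0.990) and Casq2 (0.984), and without D809 these were 0.945 and 0.948. Without the farthest library, r was 0.826 and 0.83 for Calb2 (D801), 0.78 and 0.821 for Pvalb (D804) and 0.864 and 0.861 for Pcp4 (D812). For Hpcal1, Hpcal4, Vsnl1, Ncald and Necab1 it was then 0.846 to 0.972. The points share their library and depth, and the genes named are the best of many, so no p is given.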

How the data were processed

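All 48 libraries were stranded mRNA libraries, per the labels. Raw, not normalised counts per gene were deposited by the authors as 1 table. Tools in the submitters' processing notes are STAR 2.4.2a, SAMtools, Picard and FastQC 0.10.1, and builds GRCm38 and mm8. How reads were counted, and whether by strand, is not given in the sources used here. Of 47161 features, 92 spike-ins (0.0614 to 1.09% of counts) were left out. GENCODE vM21 (GRCm38) named 46488 of the 47069 gene identifiers and gave exon lengths and transcript sequences.

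CPM and log2 CPM (prior count 2) were computed with TMM scaling over all libraries. Genotype was tested per region with edgeR's quasi-likelihood test (robust, edgeR's filter on low counts, sex and genotype as terms), regions within wild type (region and sex), and differences of the genotype effect in 1 fit of all 48 libraries or with a sex interaction. Benjamini-Hochberg adjustment ran over all genes tested, and a gene was called under 0.05. The 2-sided permutation tests of correlations used 100000 resamples of deviations from genotype means. R 4.3.3, edgeR 4.0.16, DESeq2 1.42.0 and Python 3.11.15 were used, and the genotype fit was tested on simulated data. Alternatives were DESeq2, other size factors, no filter, no sex term, 1 fit of all libraries, marker covariates, an animal block, and leaving out libraries. The length score and the fits without W813 and W815 were chosen after the data were seen.

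Animal numbers in the labels pair the regions. Libraries of 1 animal had a median correlation of deviations of 0.44 between striatum and cortex, 0.495 between cortex and cerebellum and 0.256 between striatum and cerebellum, against -0.0712, -0.0129 and -0.0467 for different animals. The 10 genes and the lists were chosen with earlier results of these data known. The genes named are all 10 members, of each list the called genes (here in part) or else the 1 of smallest p, and the 2 genes most like each member. Within a region each library is 1 animal, the unit of replication. Fits across regions hold several libraries of an animal. Their main form had no animal term and so left out the pairing, which the animal block took in. Depth limits only Necab1 in cerebellum, with 38 to 305 counts. The SE and the intervals on fold changes are not edgeR output but were calculated from its test results. The SE is the absolute log2 fold change divided by the square root of the F statistic of the quasi-likelihood test. Each interval extends from the estimate by this SE times the t quantile at the total degrees of freedom of that test.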

Additional observations from a re-analysis of the deposited data

Results flagged for a closer look

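In 7 of the 60 groups of 8 libraries, 1 library stood apart from the rest by Dixon's test on CPM. The threshold flags about 1 in 20 groups only where values are normal and groups independent. CPM need not be normal and the genes share their libraries, so the count is not set against chance. In deletion cerebellum, D809 had 169 CPM of Calb1, against 755 CPM in the next library, and 635 CPM of Vsnl1, against 477 CPM in the next. In deletion striatum, D801 had 1821 CPM of Hpca, against 731.5 CPM in the next library, and D804 had 86.0 CPM of Pvalb, against 39.3 CPM in the next. In wild-type striatum, W813 had 1957 CPM of Hpca, against 861 CPM in the next. In wild-type cortex, W815 had 74.6 CPM of Calb2, against 42.1 CPM in the next, and in wild-type cerebellum, W808 had 78.3 CPM of Hpcal4, against 47.6 CPM in the next. D801 and W813, the striata highest in Hpca, were at opposite ends of the striatal marker mean, at 8.905 and 3.91. The part of the markers in these values was not tested.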

How the results depend on the processing

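No member was called by genotype, by region and genotype together or by sex and genotype under any alternative run. The number of all genes called in striatum was 22, and it was 36 in 1 fit of all libraries, 14 with marker covariates, 42 with DESeq2 and 14 without W813 and W815. Signs of uncalled genotype differences turned as follows (log2): with marker covariates, cortical Hpca -0.124 and Pcp4 -0.456 and striatal Hpca 0.223 and Hpcal1 -0.062; with the length score, cortical Necab1 -0.031 and Pcp4 -0.095; without D810 and W813, striatal Hpca 0.289 and Vsnl1 -0.072; without W813 and W815, striatal Hpca 0.213. Between wild-type striatum and cortex, Hpcal1 was 0.065 with the animal block, 0.002 with other size factors, 0.001 with no filter and 0.079 without W813 and W815, and Necab1 was -0.121 with the block, -0.001 with no filter and -0.122 without W813 and W815. The difference of genotype effects turned with the animal block for striatum minus cortex in Calb2 (-0.036) and Necab1 (0.043), and for cortex minus cerebellum in Pcp4 (-0.152). The block added the call of Hpcal4 and changed no other call of a member.

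Leaving out 1 library at a time, the sign turned within these ranges: in striatum Calb1 -0.056 to 0.136, Hpca -0.769 to 0.203, Hpcal1 -0.026 to 0.233, Pcp4 -0.054 to 0.404, Pvalb -0.077 to 0.572 and Vsnl1 -0.033 to 0.202; in cortex Hpca -0.056 to 0.168, Hpcal1 -0.149 to 0.378 and Pcp4 -0.273 to 0.177; in cerebellum Calb1 -0.224 to 0.002, Hpcal4 -0.136 to 0.029, Pvalb -0.084 to 0.116 and Vsnl1 -0.055 to 0.052. The cause was not tested. The spread between libraries, more than depth, limits what can be seen.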
